A study of Drosophila melanogaster with 3 samples.

Results

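The regions described here are binding peaks whose summit lay just inside a transcript, 1 to 500 bp downstream of the nearest transcription start site (TSS). They come from chromatin immunoprecipitation with sequencing (ChIP-seq) of the CG1602 protein with a C-terminal green fluorescent protein (GFP) tag, pulled down through the tag with an anti-GFP antibody. All 3 biological replicates were whole Drosophila melanogaster embryos of both sexes, 0 to 24 h old, from a single transgenic line that stably expresses the fusion, so there is 1 group and no untagged or second condition. Whole embryos mix all tissues and stages, and a peak cannot be assigned to a cell type. The peak list thresholded by irreproducible discovery rate (IDR), which keeps peaks that rank alike between replicates, held 4599 peaks on dm6. Peaks whose summit lay between the start sites of a divergent gene pair at most 1000 bp apart were set aside, whereas summits outside such a pair were kept. This left 223 downstream peaks, 4.85% of the list (95% Clopper-Pearson interval 4.25 to 5.51%), at 220 genes. The genes eIF3h, Gli and CHES-1-like held 2 of them each. For comparison, 1033 peaks lay 1 to 500 bp upstream of a single promoter, 1008 lay at divergent pairs, and 2321 were farther than 500 bp from a start site. Intervals on shares cover counting error over peaks only, since read depth is unknown.

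A promoter has a core, the stretch around the TSS where RNA polymerase II assembles, and many sequence-specific factors bind just upstream of it. In Drosophila several core elements are known, among them the initiator (Inr) at the TSS itself, the TATA box, and the DNA replication-related element (DRE), which is bound by the factor DREF and is common at broadly expressed genes. Sequence downstream of the TSS becomes the 5′ UTR and, past the first splice donor, the first intron, and first introns often carry enhancers. Fly genes often have several start sites and close neighbours, so that a site downstream of one TSS can lie upstream of another.

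The following 30-base stretches of the reference hold the words that the description below turns on, at downstream peaks that carry each word. They are read in the direction of the transcript, from the NCBI RefSeq copy of dm6, and capitals mark the word. DRE was searched as TATCGATA, the second word as CACTGAGA and the third as CAACACTG, each on both strands and wholly within 100 bp of the summit. The Inr core was searched as TCAGT on the transcript's strand within 10 bp of the TSS. CAACACTG ends in the letters with which CACTGAGA begins, and the searches counted each word separately.
cnc, DRE, chr3R:23190146-23190175, minus strand: ttacagtgcacTATCGATAtggaggaccca
Karybeta3, DRE, chr3R:4649356-4649385, plus strand: cagtcgcgtttTATCGATAacggcggagca
lncRNA:CR44478, CACTGAGA, chr2L:18145389-18145418, plus strand: atggacgactaCACTGAGAaaattccatat
CG4615, CACTGAGA, chrX:7101868-7101897, minus strand: atcttcctgtgCACTGAGAaaaataacatg
CG12316, CAACACTG, chr3L:15136924-15136953, minus strand: acgacgctctcCAACACTGccaaaaaaaag
trbd, CAACACTG, chr3R:9711034-9711063, minus strand: gagacacttttCAACACTGagcgccaggga
Gli, Inr, chr2L:15762393-15762422, minus strand: tctcgtttgtatTCAGTcttgtttttggtt

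Downstream summits were most frequent next to the TSS, with a lower second maximum far inside the transcript. Within the first 50 bp lay 57 summits and in the next 50 bp 38. The count per 50 bp then dropped to 8 between 251 and 300 bp and was 24 between 401 and 450 bp, a difference between small counts that was not tested. The median position was 135 bp, with quartiles of 45.5 and 353 bp. Upstream peaks had 1 broad maximum instead, with 165 summits between 151 and 200 bp from the TSS and a median position of -196 bp. For description the downstream peaks were split at 100 and 300 bp, after their positions had been seen. Near peaks (1 to 100 bp) numbered 95, middle peaks (101 to 300 bp) 61 and far peaks (301 to 500 bp) 67.

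**Figure D1:**
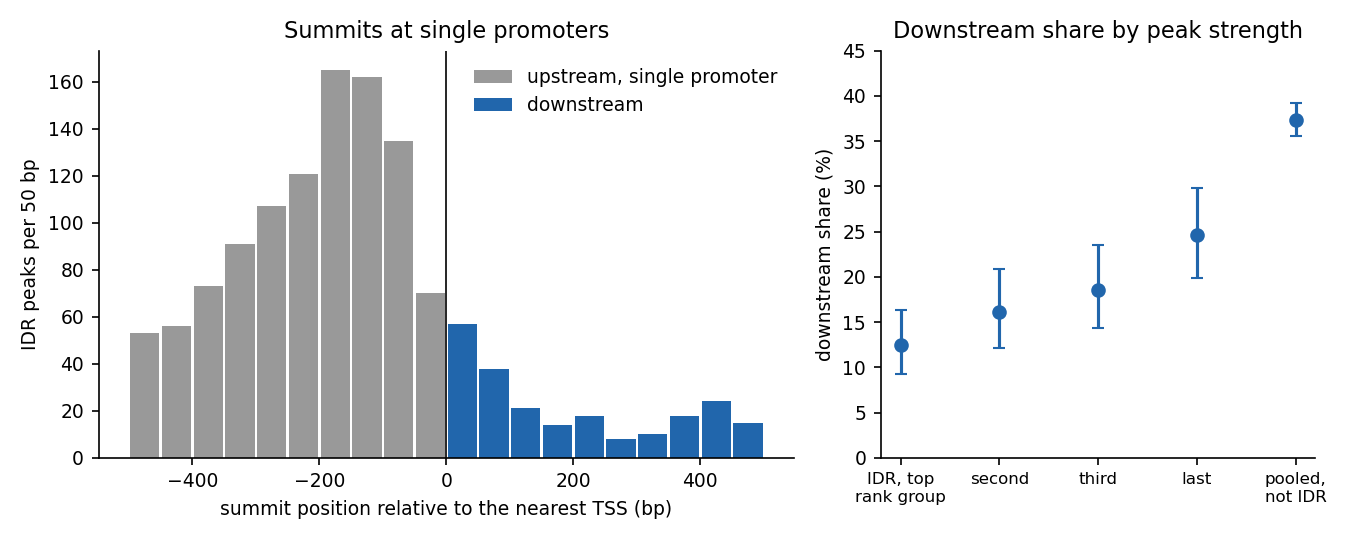
The left panel counts IDR peaks per 50 bp of summit position relative to the nearest TSS, upstream peaks in grey and downstream peaks in blue. The right panel gives the share of single-promoter peaks that lay downstream, with 95% Clopper-Pearson intervals, for 4 rank groups of about equal size within the IDR list and for pooled regions outside it. The share was 12.5% in the strongest rank group and 37.4% outside the list.

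At the edges of the window, Zif and MrgBP held summits 1 bp inside the transcript (signal 131.8 and 119.6), and trbd, which encodes a deubiquitinase, 2 bp inside (161.0). The summit of Svil lay on the TSS base itself (113.9), and that of RpS29, a ribosomal protein gene, 2 bp upstream (234.5). At the far end, lncRNA:CR44517 (position 499, signal 167.9), omd (498, 128.5) and CG5171 (498, 174.3) were inside the window, and lncRNA:CR44363 (502, 599.98), aru (502, 414.1) and wech (505, 251.2) outside it. A further 13 summits met the distance rule but lay past the 3′ end of a short transcript, such as lncRNA:CR44676 and snoRNA:Or-CD13, and were left out because they are not inside it. With only the most upstream TSS of each gene in use, 337 peaks were downstream instead of 223.

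The downstream and upstream peaks together are called single-promoter peaks here, although 46 of the 223 downstream peaks stood at a divergent pair with the summit outside it. Among single-promoter peaks, 17.8% were downstream (223 of 1256, interval 15.7 to 19.98%), and this share was higher among weaker peaks. It was 29.6% with only the most upstream TSS of each gene. With the IDR list cut by rank into 4 groups of about equal size it was 12.5% (45 of 360), 16.2% (47 of 291), 18.6% (55 of 296) and 24.6% (76 of 309), from the strongest group to the weakest. In the 12041 pooled regions that did not enter the IDR list it was 37.4% (987 of 2640, interval 35.5 to 39.3%). When each replicate's own 4599 strongest regions were classified by the same rule, the downstream peaks numbered 218, 280 and 229, and the share was 18.0%, 20.8% and 18.0% (mean 18.9% ± 1.65, SD, n = 3). The signal, the authors' own value relative to a control, had a median of 168.6 at downstream peaks (range 108.5 to 1867), against 200.0 at upstream peaks and 216.3 at divergent pairs. Of the strongest 100 IDR peaks, 9 were downstream peaks.

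Of the strongest 5 downstream peaks all but tank lay in the near group. All but GstE13 stood at a divergent gene pair, with the summit outside the pair and also upstream of the other gene's TSS. CG8320 led with a signal of 1867 (2R, 15992305 to 15992686, summit 93 bp inside the transcript, in an intron) and ranked 16, 13 and 13 in replicates 1, 2 and 3. Its summit was also 126 bp upstream of the TSS of Pex11ab, which encodes a peroxisomal membrane protein. The peak of CG9147 (2L, 6065924 to 6066284, signal 1757) lay 12 bp inside the transcript and ranked 15, 18 and 17. Its summit was also 146 bp upstream of the TSS of Fbw5. The antisense RNA gene asRNA:CR45928 (2R, 23850239 to 23850566, signal 1372) ranked 27, 51 and 28, and its summit was 112 bp upstream of the TSS of eIF6, which encodes a factor of ribosome biogenesis. GstE13, a glutathione S-transferase gene, held its peak 55 bp inside the transcript (signal 1350, ranks 32, 58 and 26). The first 5 by strength were completed by tank (signal 1185, position 123, ranks 48, 67 and 46). In all 3 replicates these 5 peaks were among the 67 strongest regions.

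Far peaks were also found among the strongest. The Polycomb group gene ph-p, which encodes a subunit of Polycomb repressive complex 1, held a peak 431 bp inside the transcript in its 5′ UTR (X, 2137702 to 2138095, signal 1053), with ranks of 58, 59 and 65 and replicate summits at 415, 423 and 420 bp. In an intron of CG31612 the summit lay 478 bp from the TSS (signal 813.8, ranks 144, 127 and 131). Ptp4E, a receptor protein tyrosine phosphatase gene, had a summit at 411 bp, again in an intron (signal 633.2, ranks 203, 331 and 246). Other members of the strongest 20 in the near group were lncRNA:CR44149 (signal 1094, position 74), CG9399 (1084, 61), lncRNA:CR31840 (1051, 17), Ufsp1 (795.5, 13), which encodes a protease of the UFM1 pathway, Smg5 (663.0, 82), a gene of nonsense-mediated mRNA decay, and CG4497 (568.2, 69). The middle group added lncRNA:CR44380 (581.0, 279), rudhira (549.8, 261), the carbonic anhydrase gene CAH3 (468.7, 127) and lncRNA:CR46102 (441.0, 139), and the far group CG43116 (564.4, 373) and lncRNA:CR45618 (448.2, 427). All 20 were held by the strongest 4599 regions of every replicate.

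Summits lay in 5′ UTRs and introns and almost never in coding sequence. The 5′ UTR held 107 of the 223 (47.98%), introns 76 (34.1%), exons of non-coding transcripts 38 (17.0%), coding exons 2 (0.897%) and 3′ UTRs none, which allows up to 1.64%. The place followed the distance. The 5′ UTR held 80.0% of near, 41.0% of middle and 8.96% of far peaks, and introns held 4.21%, 42.6% and 68.7%. The 5′ UTR comes first in a transcript, so place and distance are not independent. Intronic summits lay a median of 131 bp past the splice donor (quartiles 58.5 and 204 bp), and 16 of 76 lay within 50 bp of it. Among the downstream regions outside the IDR list, coding exons held 12.8% (126 of 987).

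**Figure D2:**
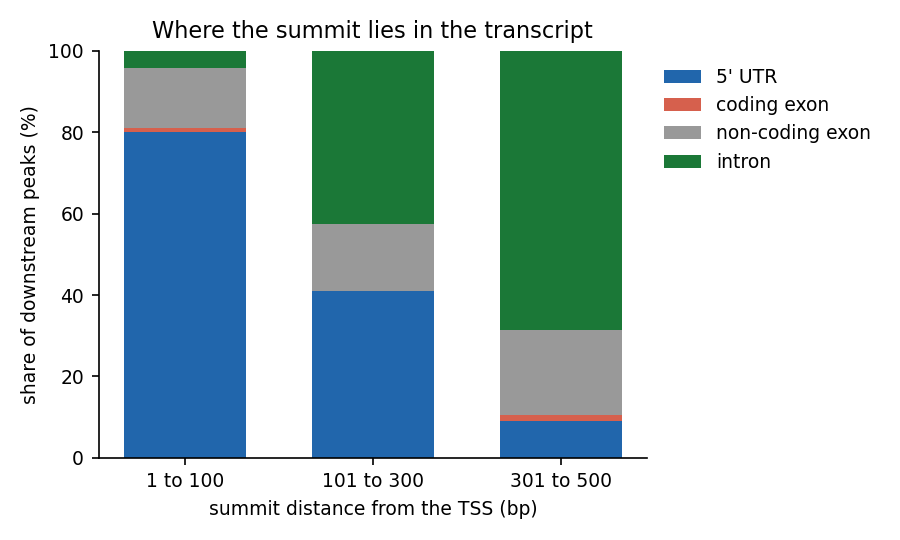
Stacked bars give the share of downstream peaks in each part of the transcript, by distance of the summit from the TSS (95 near, 61 middle and 67 far peaks). The 5′ UTR holds 80.0% of near peaks and introns hold 68.7% of far peaks.

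Many near peaks also lay upstream of another start site. This was so for 90 of the 223 peaks (40.4%), with the second TSS within 500 bp. The share was 68.4% for near, 36.1% for middle and 4.48% for far peaks. A second TSS could lie no closer to the summit than the nearest TSS and at most 500 bp away. Far peaks thus had less room for one than near peaks, so the rule itself sets part of this order. The second TSS belonged to the same gene at 41 peaks, to another gene on the opposite strand at 46 and to another gene on the same strand at 6, and some peaks had more than 1 kind. The 46 peaks thus stood at a divergent pair, with the summit outside it rather than between its start sites. In the other direction, 59 of the 1033 upstream peaks (5.71%) lay also downstream of another TSS. With these peaks of both classes removed, the downstream share fell to 12.01% (133 of 1107). The 133 downstream peaks that remained had a median position of 284 bp, and 50.4% of them were in introns. In replicates classified on their own, the share of near peaks with a second TSS was 66.4% ± 7.40 (SD, n = 3), against 6.88% ± 2.49 of far peaks.

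The replicate summits kept far peaks downstream, while near peaks could change sides. The overlapping replicate region had its summit downstream of the same TSS for 91.4%, 88.8% and 91.9% of the peaks found in replicates 1, 2 and 3 (mean 90.7% ± 1.68, SD, n = 3). It was downstream in all 3 replicates for 67 of 67 far, 59 of 61 middle and 60 of 93 near peaks. The pooled region covered the TSS at 0 of 67 far and 95 of 95 near peaks. An overlapping replicate summit could thus hardly cross the TSS at far peaks. The pooled list was also made from these replicates, so this is no independent test of position. At CG8320 the replicate summits stood at 93, 107 and 94 bp. RpL30, a ribosomal protein gene with its pooled summit at 3 bp, had replicate summits at -4, -39 and 3 bp. The median distance between pooled and replicate summits was 15, 17 and 10 bp, which is of the order of the distance of the nearest members from the TSS. At some members the overlapping replicate region held another summit, as at the complex I gene ND-42 (pooled 12 bp, replicates -238, -203 and -227 bp), and the weaker peaks of eIF3h, Gli and CHES-1-like shared their replicate region with the stronger one.

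**Figure D3:**
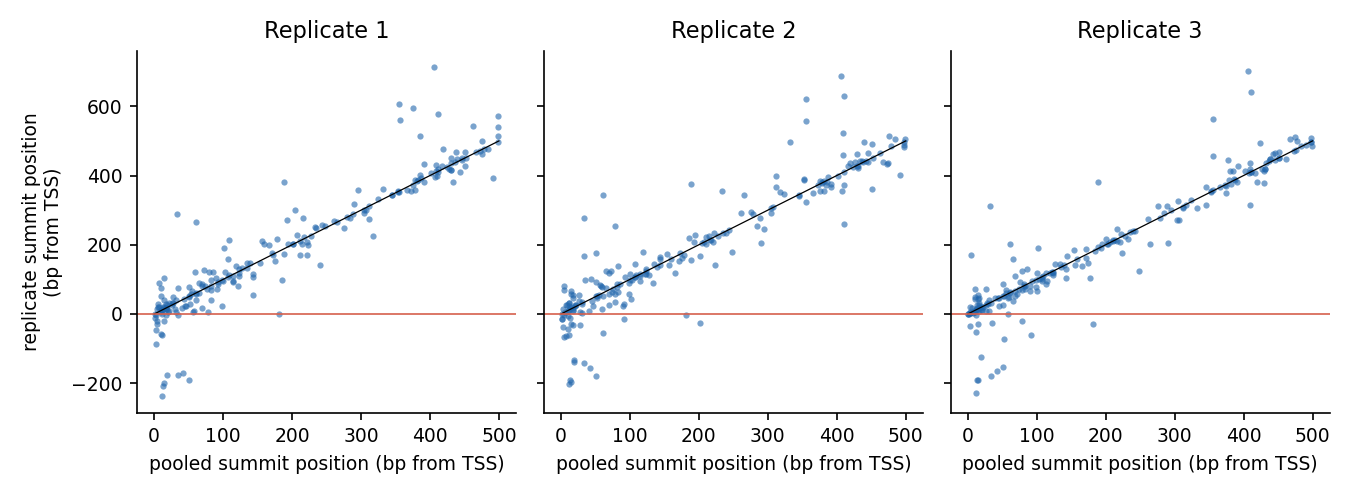
Each point is a downstream peak, with the pooled summit position on the x axis and the summit of the overlapping region in the named replicate on the y axis, both in bp from the same TSS. Points under the orange line at 0 are summits upstream of the TSS in that replicate, and the black line marks equal positions; 91.4%, 88.8% and 91.9% of the points lie above 0.

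Downstream peaks ranked lower than upstream peaks in every replicate. Of the 223, 155 (69.5%, interval 63.0 to 75.5%) overlapped the strongest 4599 regions of all 3 replicates, against 73.6% of all IDR peaks and 76.9% of upstream peaks. In replicates 1, 2 and 3 singly these were 89.2%, 85.7% and 86.5%, and for upstream peaks 89.4%, 86.1% and 94.9%. The median percentile rank within the whole replicate list, in which a lower value is a stronger region, was 13.9, 9.15 and 13.2 for downstream and 11.3, 7.10 and 10.4 for upstream peaks. The difference, upstream minus downstream, was -2.48 ± 0.381 percentile points (SD, n = 3, exact sign-flip permutation test over replicates, two-sided, p = 0.25). With 3 replicates this is the smallest p the test can give, so it cannot pass a threshold of 0.05. In all, 4 such differences were tested over replicates (rank here, and non-coding genes, GC content and the Inr word), each with an exact permutation p = 0.25, also after Benjamini-Hochberg adjustment.

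Genes of non-coding RNAs were more frequent at downstream than at upstream peaks. They were nearest to 43 of 223 summits (19.3%, interval 14.3 to 25.1%), against 6.00% of upstream peaks and 12.4% of all IDR peaks. Counted over genes, 1.31% of the 3289 annotated non-coding RNA genes had a downstream peak, near the 1.25% of protein-coding genes. An upstream peak was found at 1.89% and 6.33% of these genes. The contrast thus lay in the upstream peaks, which were less frequent at non-coding RNA genes. In replicates classified on their own the shares were 18.6% ± 2.52 and 6.19% ± 0.0701 (SD, n = 3), and the difference, upstream minus downstream, was -12.5 ± 2.45 points with the same sign in 3 of 3 replicates (exact permutation p = 0.25). The share was 14.7% of near, 21.3% of middle and 23.9% of far peaks. Long non-coding and antisense RNA genes among the strongest 20 were asRNA:CR45928, lncRNA:CR44149, lncRNA:CR31840, lncRNA:CR44380, lncRNA:CR45618 and lncRNA:CR46102. Further members were small nuclear RNA genes of the spliceosome, snRNA:U1:95Ca (signal 169.3, position 10) and snRNA:U2:34ABb (114.1, position 185), which belong to families of near-identical copies, so that reads may be split between them. No tRNA or snoRNA gene held a downstream peak, but for genes this short the requirement that the summit lie inside the transcript largely fixes that count. The summits at snoRNA:Or-CD13 (signal 345.2) and snoRNA:Or-CD4 (192.9) met the distance rule and were left out for it.

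Summits of downstream peaks were poor in G and C, though less so than upstream summits. In windows of 100 bp to each side, GC content averaged 37.8% ± 6.81 (SD over 223 peaks), against 34.2% ± 6.57 at upstream and 33.1% ± 6.18 at divergent peaks. At windows 1000 bp upstream and downstream of the same summits it was 42.1% and 44.5%. In replicates classified on their own the values were 38.2% ± 0.334 at downstream and 34.5% ± 0.524 at upstream peaks (SD, n = 3), and the difference, upstream minus downstream, was -3.63 ± 0.195 points with the same sign in 3 of 3 (exact permutation p = 0.25). At protein-coding genes alone, downstream summits had 38.2% and upstream summits 34.2%. Near peaks had 38.7%, middle peaks 37.9% and far peaks 36.4%. The low point of near peaks was not at the summit but 150 bp upstream of it, at 34.6% ± 1.21 (SE, n = 95 peaks), where the summit itself had 38.1% ± 1.08 in the same windows of 25 bp to each side. Far peaks had their low point 50 bp downstream of the summit, at 32.4% ± 1.27 (SE, n = 67 peaks), between 44.0% at 250 bp upstream and 43.3% at 250 bp downstream.

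**Figure D4:**
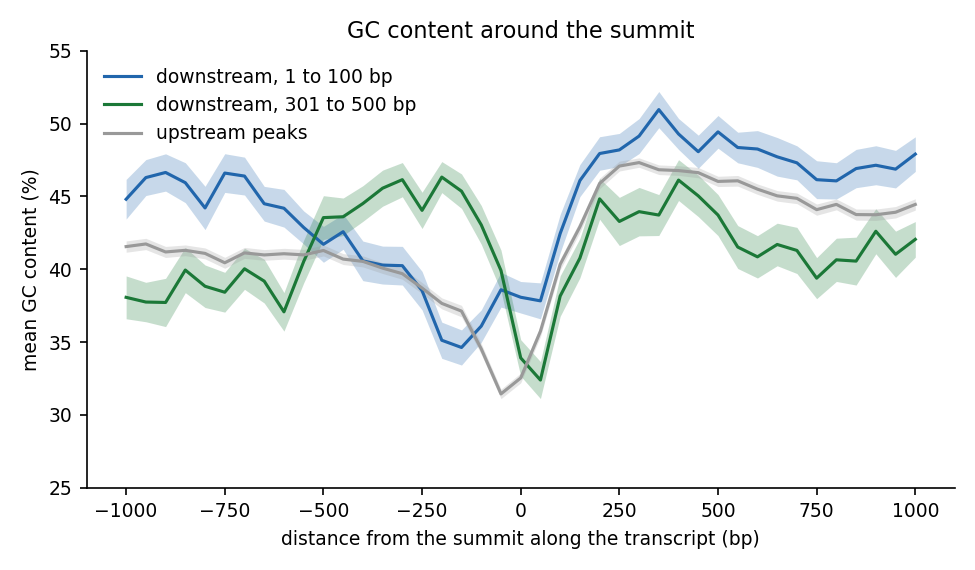
Lines give the mean GC content in windows of 25 bp to each side along the transcript's direction, with bands of 1 standard error over peaks, for near and far downstream peaks and for upstream peaks. Far and upstream peaks have their low point within 50 bp of the summit, and near peaks 150 bp upstream of it.

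Of 9 words searched at the summit, some were found mainly at near and some mainly at far peaks. CAACACTG, chosen after a survey of short words at these same summits, lay at 13 downstream summits (5.83%), against 2.76% of all IDR peaks, 4.26% of upstream and 5.36% of divergent peaks. Among downstream peaks held by all 3 replicates it was 3.23% (5 of 155), and in the stronger 2299 IDR peaks 3.26% (3 of 92), both near the share of all IDR peaks. Of these 13, 11 were near, 2 middle and 0 far. It lay at 10 of the 90 downstream peaks that were also upstream of another TSS (11.1%) and at 3 of the 133 that were not (2.26%). The separate parts of distance and a second TSS were not tested. The genes with this word included those of the mitochondrial ribosomal protein mRpS11, the Mediator subunit MED6, the kinase CkIalpha, the small GTPase Rab8, the metal-responsive factor MTF-1 and the DNA repair protein Brca2. Word centres lay a median of 30.5 bp from the downstream summits (18 words within 200 bp) and 86.5 bp from all IDR summits (236 words). CAACACTG was chosen at these same summits, so its closeness to them is no independent result. DRE lay at 9 downstream summits (4.04%), against 3.33% of all IDR peaks and 9.23% of divergent peaks, and 7 of the 9 were near. In windows of 50 and 150 bp to each side it was found at 2.24% and 7.62%, and in the stronger 2299 IDR peaks at 2.17% of downstream summits. In windows centred 135 bp inside the 14872 genes without a promoter peak, CAACACTG, DRE and CACTGAGA were found in 0.598%, 0.491% and 0.699%. Those windows and the windows of far peaks do not reach the TSS, whereas the windows of near peaks include it. The shares thus differ also in the place searched. The near genes with DRE included mei-41, which encodes a checkpoint kinase, and p53. At cnc, the gene of a bZIP factor of the oxidative stress response, DRE lay in an intron. The DRE centres at mei-41, Rab8 and levy lay at -15, -14 and -51 bp from the TSS, upstream of it, and that at Pdi lay at 156 bp. In replicates classified on their own, CAACACTG lay at 10.5% ± 2.07 of near and 0.444% ± 0.770 of far peaks (SD, n = 3), and DRE at 7.90% ± 1.03 and 0.444% ± 0.770.

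CACTGAGA showed the other order. It lay at 7 downstream summits (3.14%), against 4.09% of all IDR peaks and 2.71% of upstream peaks, so downstream peaks as a whole were near the background. In windows of 50 bp to each side 0.448% held it, since most of these words lay 51 to 100 bp from the summit. None of the 7 was near, 2 were middle (lncRNA:CR45325 and Uev1A) and 5 were far: lncRNA:CR44478, CG4615, Eip63F-1, lncRNA:CR44366 and lncRNA:CR46204. None of these 7 peaks lay upstream of another TSS. In replicates classified on their own it lay at 0% of near peaks in all 3 replicates and at 4.58% ± 3.31 of far peaks (SD, n = 3). The GAGA word GAGAGAG lay at 0 near, 2 middle and 5 far summits. That was 3.14% of downstream peaks, against 2.91% of all IDR peaks and 5.61% of upstream peaks. The E-box CAGCTG lay at 17 near, 6 middle and 3 far summits, or 11.7% of all downstream peaks. The E-box share was 7.63% of all IDR peaks and 11.7% of divergent peaks, 9.43% of windows 135 bp inside genes without a promoter peak, and 16.1% of windows 1000 bp downstream of the same summits. In windows of 50 and 150 bp it was 5.38% and 17.5%. The Motif 6 core GTATNTT was found at 23.2% of near, 14.8% of middle and 23.9% of far peaks. The BEAF-32 word CGATA was found at 35.8%, 21.3% and 25.4%. CGGACG, the core of the downstream promoter element and the pause button, was found at 6.32%, 1.64% and 1.49%. In the same order, the shares of all downstream peaks were 21.1%, 28.7% and 3.59%, and those of all IDR peaks 25.1%, 28.5% and 1.11%. In windows 135 bp inside genes without a promoter peak they were 12.4%, 22.4% and 5.74%. The Zelda word CAGGTAG lay at 0 near, 1 middle and 1 far summit, or 0.897% of downstream peaks, against 0.696% of all IDR peaks. These counts are small, and peaks are not replicates, so no test was made between the groups.

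At the TSS, the Inr core TCAGT was less frequent beside downstream than beside upstream peaks. It was found at 22 of 223 (9.87%), against 16.8% for upstream peaks and 10.9% at genes without a promoter peak. At protein-coding genes alone the shares were 10.7% (19 of 178) and 17.4% (168 of 967), and 13.3% at those without a promoter peak. In the stronger 2299 IDR peaks the share beside downstream peaks was 5.43%. In replicates classified on their own the shares were 10.4% ± 2.10 and 17.4% ± 0.711, and the difference, upstream minus downstream, was 6.98 ± 2.61 points with the same sign in 3 of 3 (SD, n = 3, exact permutation p = 0.25). By distance, it was found at the TSS of 4 of 95 near, 7 of 61 middle and 11 of 67 far peaks. Gli is an example with the word. The TATA box (TATAAA, 45 to 15 bp upstream), Motif 1 (GGTCACACT) and the TCT core CTTTT were found at 3.59%, 2.24% and 1.79% of downstream peaks. At upstream peaks the shares were 3.10%, 3.97% and 2.52%, and at genes without a promoter peak 8.47%, 3.09% and 2.10%.

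**Figure D5:**
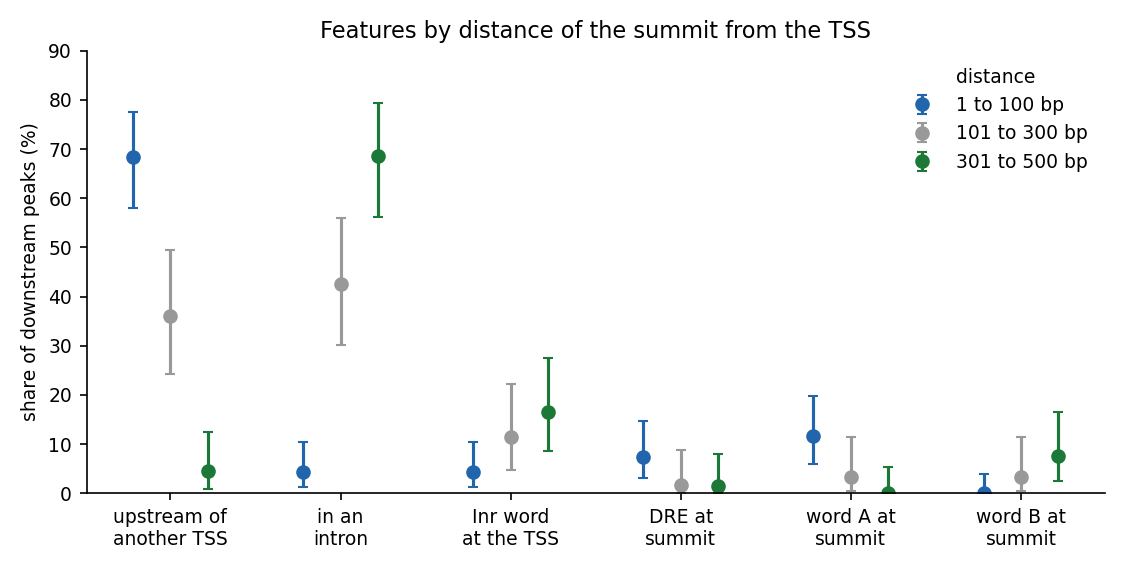
Points give the share of near (1 to 100 bp), middle (101 to 300 bp) and far (301 to 500 bp) downstream peaks with each feature, with 95% Clopper-Pearson intervals that cover counting error over peaks. Word A is CAACACTG and word B is CACTGAGA. A second TSS, DRE and word A were most frequent at near peaks, and introns, the Inr word (TCAGT) and word B at far peaks. Far peaks leave less room for a second TSS within 500 bp, and their summit windows do not reach the TSS.

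Few annotated genes had a downstream peak, and the share differed between the gene lists. Over all annotated genes, 220 of 17947 had one (1.23%), and over 16 lists 15 of 892 genes did. Polycomb and trithorax group genes, which maintain silent and active chromatin states, had 4 of 35 (11.4%, interval 3.20 to 26.7%). These were ph-p, Trl (signal 350.0, position 154), which encodes GAGA factor, Su(z)12 (293.0, position 107), a subunit of Polycomb repressive complex 2, and ph-d (132.3, position 143), the neighbour and near-copy of ph-p, so that reads may be split between both. Insulator and architectural protein genes had 3 of 17, Trl again, pita (171.8, position 35) and CTCF (110.6, position 102). An upstream peak was found at 4 genes of the Polycomb and trithorax list and at 0 of the insulator list. CTCF ranked 3960, 15392 and 2828 in the replicates, whose lists held 17580, 27164 and 18386 regions. Replicate 2 was thus far from the others, though part of the gap in rank comes from its longer list. Replicate 2 also ranked ph-d at 8493, against 2291 and 3725 in the shorter lists.

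Lists of the general machinery each held 1 to 3 genes with a downstream peak, and 5.29% of all annotated genes had an upstream peak. Cytoplasmic ribosomal protein genes had 1 of 93 with a downstream peak, RpL30 (signal 237.1, position 3), and 13 with an upstream peak. Mitochondrial ribosomal protein genes had mRpS11 (112.0, position 6) of 73, with ranks of 9239, 3774 and 3514, and 0 with an upstream peak. Oxidative phosphorylation genes had 3 of 91: ND-42 (137.9) and ND-B22 (136.2) of complex I and levy (116.1) of complex IV, with 2 that had an upstream peak. Translation factor genes had eIF3h of 54, with 2 peaks at 289 and 33 bp (256.9 and 141.3), and 7 with an upstream peak. The proteasome list had Rpn10 (134.8) of 48, the Mediator list MED6 (132.0) of 29, the list of polymerase pausing and elongation Trl of 26, and the cell cycle list Dp (231.6, position 433), the partner of E2F, of 42. In the same lists 1, 0, 2 and 7 genes had an upstream peak. No downstream peak was found at 43 Hox and segmentation, 67 signalling, 27 nuclear receptor and ecdysone response, 26 heat shock, 115 histone or 118 cuticle protein genes. In the same order the upper limits were 8.22%, 5.36%, 12.8%, 13.2%, 3.16% and 3.08%. Each is above the 1.23% of all annotated genes, so these lists cannot be told apart from it. An upstream peak was found at 4, 6, 4, 2, 0 and 0 of their genes.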

How the data were processed

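The authors deposited peak lists for 2 builds, dm6 and dm3, of which the 5 dm6 lists were used and the 5 dm3 lists were not. Per the file headers and deposited notes, replicate lists were made from each replicate's alignments against a shared control, the pooled list from all 3, and the IDR list from these. The sources used here do not give the aligner, peak caller, IDR threshold or read depth. The deposited signal of each region is the authors' value, used to rank regions and to compare classes of peaks within a list, never between lists, and the deposited summit offset gave the summit. Per the labels, chromatin was sonicated.

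Genes came from Ensembl release 115 without pseudogenes and transposable elements, and sequence from the NCBI RefSeq copy of dm6; all dm6 regions lay within its arm lengths. A summit was a member if its nearest TSS was 1 to 500 bp away with the summit inside the transcript. Replicate regions were matched by 1 shared bp. The 4599 strongest regions of each replicate were also classified alone. Differences over 3 replicates were tested by exact sign-flip permutation. Peaks were not treated as replicates. Nothing says that the replicates came from separate cages or collections, so their spread may be in part technical.

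The members and gene lists were chosen with earlier results of these data known. After the data were seen, summits past transcript ends were left out, the distance groups and CAACACTG were chosen, 3 of the 4 replicate tests were added, and gene lists were corrected for current symbols and for 2 entries that did not belong. Named genes are the 20 strongest members, list members, the peaks at the window's edges and the genes behind small counts; genes named for a word beyond these were picked from those that hold it. One stretch of sequence at a strong peak is not reported here. The classification and word search were tested on simulated data. Alternatives covered the distance, spacing, start sites, window, peak list and each replicate. Scripts ran under Python 3.11.15 with scipy 1.17.1, pandas 2.3.3, numpy 2.4.6 and matplotlib 3.10.9.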

Additional observations from a re-analysis of the deposited data

How the results depend on the processing

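Of 178 alternative values, 135 stayed within the counting interval, replicate SD or 1.5-fold range of the reported value, and 43 moved. Of the 178 only those of the rank difference could change sign, and they ranged from -1.64 to -2.04. With only the most upstream TSS of each gene, the count was 337, the downstream share 29.6%, the median distance 99 bp, the intron share 27.0% and Motif 1 5.38%. With coding start sites only, the downstream share was 15.3%. Within 250 bp of the TSS, the count was 148, the median distance 69 bp, the intron share 16.9% and the share of replicate summits downstream 86.0%. In the stronger 2299 IDR peaks, the count was 92, the downstream share 14.1%, Inr 5.43%, the share held by all 3 replicates 100% and that of replicate summits downstream 96.7%. An alternative chosen after seeing the data left out peaks that were downstream of 1 TSS and upstream of another. The downstream share was then 12.01%, the median distance 284 bp and the intron share 50.4%. Windows of 50 and 150 bp gave a summit GC of 36.4% and 39.1%, CACTGAGA 0.448% at 50 bp and DRE 7.62% at 150 bp. Among peaks held by all 3 replicates the median signal was 211.4. The share held was 96.0% in replicate lists of 9198 regions and 60.1% with summits within 100 bp. Leaving out each replicate in turn gave a median signal of 189.6 to 203.3, a share held by the others of 74.9 to 79.8%, and replicate summits downstream of 88.6 to 92.4%. No paired analysis between groups was possible because there is 1 group; classes of peaks were compared within each replicate. Unknown depth and 3 replicates limit all comparisons, and the causes of these shifts were not tested.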

Other observations

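The 13 summits left out because they lay past a transcript's end were mostly at short non-coding transcripts, among them lncRNA:CR44676 (signal 650.7, position 376), lncRNA:CR44276 (336.4, 429), lncRNA:CR45997 (317.7, 423) and the small RNA genes snoRNA:Or-CD13 (345.2, 475), snoRNA:Or-CD4 (192.9, 401) and snRNA:U5:63BC (116.9, 127). A further IDR summit lay within 1000 bp of 53 of the 223 downstream summits (23.8%).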
